A study of Mus musculus with 59 samples.

Results

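The E2F1 knock-in and the E2F3b knock-in were set against each other in mouse liver, gene by gene, through the wild type. The measure was a difference of differences: the mean log2 level in E2F1 knock-in (1KI) minus the wild-type (wt) mean of the first normalization, minus the same quantity for the E2F3b knock-in (3bKI) in the second normalization. A positive value means that 1KI lay above 3bKI. The comparison used 39 of the 59 deposited samples, which are 27 of 37 arrays: 10 of 1KI, 5 of 3bKI and 12 of wt. The 12 wt arrays appear in both normalizations and were entered once each, so both knock-ins share them. All 18193 genes with a probe set of exactly 1 gene symbol were members.

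All groups were livers of 4-week-old mice on a mixed background of FVB/NT, 129S1/Svlmj and C57BL/6NT. They differed by genotype as labelled: E2F1 knock-in, E2F3b knock-in or wildtype, with no treatment named. By a sex index, the Xist signal minus that of Y-linked genes, each group held both sexes. The Xist side had 5 arrays of 1KI, 2 of 3bKI and 5 of wt, and the Y side 5, 3 and 7. The sources used here do not give the locus that received each knock-in sequence, the time of day or feeding state at collection, or the hybridization dates. Whether each array holds a different animal is not stated in the labels, so the p-values rest on the spread among these arrays, part of which may be technical. Each value is a log2 level from an Affymetrix expression array of total RNA, and a change in such bulk RNA cannot tell fewer cells of a type apart from less RNA per cell.

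E2F proteins bind DNA together with a DP partner and control genes of DNA synthesis and cell division, under the restraint of the retinoblastoma family of pocket proteins. E2F1 is classed with the activators, and E2f3 gives rise to the activator E2F3a and to E2F3b, which lacks the E2F3a start and has been linked to both repression and activation. In the liver, where most hepatocytes stop dividing after birth, E2Fs are also studied for their part in metabolism.

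Control measures moved with the genotypes. The spiked hybridization controls averaged 11.3 ± 0.24 in 1KI (SD, n = 10) and 11.6 ± 0.29 in 3bKI (n = 5), against 10.4 ± 0.50 in wt in the first normalization (n = 12). Among wt arrays only replicates 1 and 2 stood as high as the knock-ins. Poly-A controls, spiked before labelling, stood at 9.42 ± 0.54 in 1KI and at 13.8 ± 0.04 in 3bKI, against 9.10 ± 0.39 in wt, so that whatever set the 3bKI preparations apart cannot be told apart from their genotype. The 3′ minus 5′ signal of Gapdh and Actb, which grows as RNA degrades, was 0.640 ± 0.398 in 1KI, where replicate 6 reached 1.75, and 0.314 ± 0.038 in 3bKI, against 0.558 ± 0.050 in wt. Between the 2 normalizations each wt array correlated with itself at 0.999 or more, and a gene's shift varied over the wt arrays with a median SD of 0.035.

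The knock-ins differed in 3707 of 18193 genes, which is 20.4% of those tested (limma, Benjamini-Hochberg adjusted p under 0.05). Of these, 1600 were higher in 1KI (8.79%) and 2107 lower (11.6%). Most differences were small: the median size of a called difference was 0.343 on the log2 scale, 310 higher and 239 lower genes passed 1.5-fold, and 60 and 38 passed 2-fold. The median of all differences was -0.041. The 10 arrays of 1KI and the 5 of 3bKI did not overlap in 771 genes, or 4.24% of those tested, with 1KI above in 406 (2.23%) and below in 365 (2.01%). With all arrays moved to equal medians, 1724 genes were higher and 1513 lower, so the excess of lower genes depends on the scaling.

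Set beside wt, 1KI changed 4449 genes (24.5%), of which 1666 rose (9.16%) and 2783 fell (15.3%), and 3bKI changed 4483 (24.6%), of which 2065 rose (11.4%) and 2418 fell (13.3%). The 3707 differences fell into kinds by these calls. In 903 of them the gene was called against wt in 1KI and not in 3bKI, in 1671 in 3bKI and not in 1KI, and in 707 in neither. In 345 both had changed in the same direction by different sizes, and in 81 in opposite directions. All knock-in arrays lie at the higher hybridization control level, so a block for that level leaves each difference between the knock-ins as it is and alters only its error. In the comparisons with wt that block leaves the contrast to wt replicates 1 and 2, and the median standard error was 0.121 for 1KI and 0.131 for 3bKI, against 0.0679 and 0.0844 without it. Both of these wt arrays lay on the Y side of the sex index, while each knock-in held arrays of both sides.

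**Figure D1:**
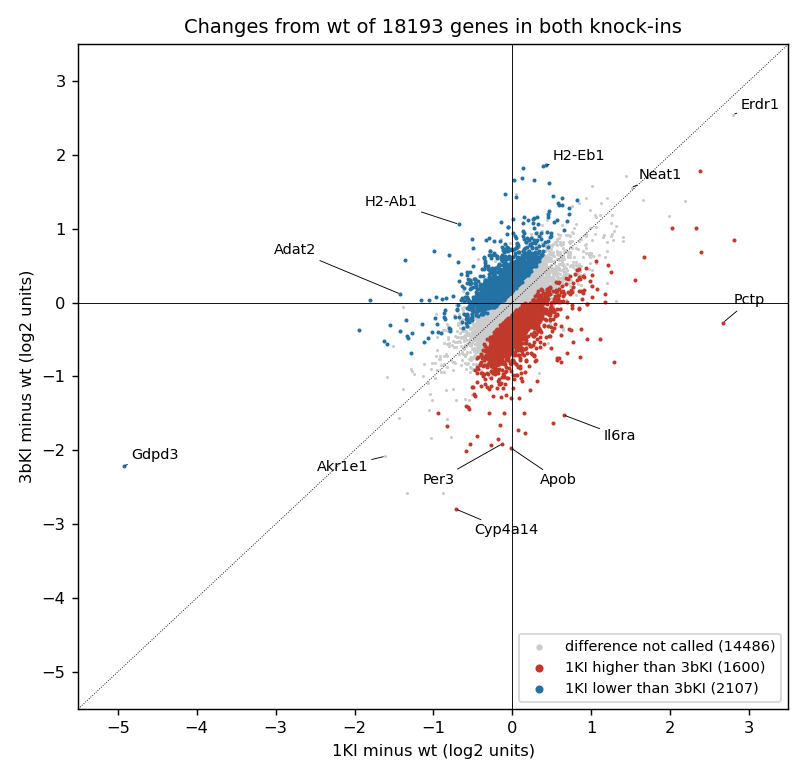
Log2 change of each of the 18193 genes in 1KI against wt (horizontal axis) and in 3bKI against wt (vertical axis), 1 point a gene, with the dotted line where both are equal. Red points are the 1600 genes higher in 1KI than in 3bKI and blue points the 2107 lower ones; Pctp lies far to the right with 2.67 in 1KI and -0.27 in 3bKI, and Apob and Per3 lie low with -1.97 and -1.91 in 3bKI at little change in 1KI.

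The genes that encode the proteins named in the knock-in labels did not pass between the knock-ins. E2f1 differed by -0.10 ± 0.14 (SE, adjusted p = 0.63), and its other probe sets by -0.19 and -0.01. E2f3, which encodes E2F3a and E2F3b, differed by 0.21 ± 0.10 (adjusted p = 0.13) at its brighter probe set and by -0.19 at the dimmer one, so the probe sets point in different directions. Whether these probe sets cover the inserted sequences is not known here, so they do not check the labels. Of the 10 E2F and DP genes, 1 was higher and 2 lower in 1KI. E2f8, an atypical E2F that represses E2F target genes, was higher by 0.88 ± 0.24 (adjusted p = 0.0086), with changes from wt of 0.05 in 1KI and -0.84 in 3bKI. E2f2, another activator, differed by -0.39 ± 0.11 (adjusted p = 0.013), a call that was lost without 3bKI replicate 3 (-0.24, adjusted p = 0.086). E2f4, the main E2F of resting cells, differed by -0.21 ± 0.07 (adjusted p = 0.037), a call that was lost in 8 of 27 fits that left out 1 array.

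Of 41 gene lists with 778 tested members, a few held far more called genes than the 8.79% higher and 11.6% lower among all genes. Genes higher in 1KI were most frequent among clock outputs (11 of 19), metallothioneins and glucocorticoid-responsive genes (8 of 15), inducible PPAR alpha targets (12 of 26) and gluconeogenic and fasting genes (8 of 19). Genes lower in 1KI were most frequent among MHC class II genes (6 of 9), interferon-stimulated genes (11 of 26) and sinusoidal endothelial markers (6 of 18). These counts are descriptions without a test of the list.

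**Figure D2:**
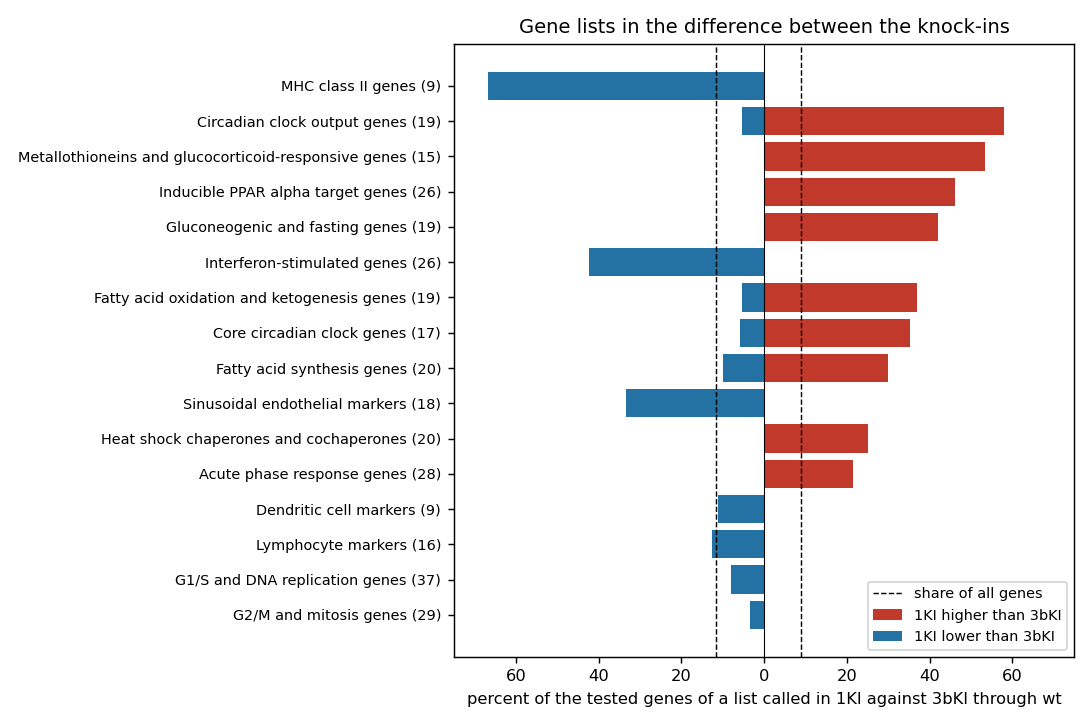
Percent of the tested genes of 16 lists that were higher (red, to the right) or lower (blue, to the left) in 1KI than in 3bKI, with the number tested in parentheses. Dashed lines mark the shares among all genes, 8.79% and 11.6%; the MHC class II genes, with 6 of 9 lower, and the clock outputs, with 11 of 19 higher, reach furthest past them.

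The hepatic clock genes were among the lists that lay furthest apart. In the clock loop CLOCK or NPAS2 with BMAL1 (Arntl) binds E-boxes and drives the Per and Cry repressor genes, and the PAR bZIP factors DBP and TEF act on D-boxes of output genes. Of 17 core clock genes 6 were higher in 1KI and 1 lower, with a median difference of 0.22, and of 19 outputs 11 were higher and 1 lower, with a median of 0.84, against -0.041 over all genes. Against wt, 1 of the 19 outputs had risen and 2 had fallen in 1KI, with a median change of -0.11, whereas 2 had risen and 13 had fallen in 3bKI, with a median of -1.10. Averaged over the 19 outputs, the 10 1KI arrays stood between -0.74 and 0.17 relative to wt, the 5 3bKI arrays at -1.04, -0.47, -1.13, -0.40 and -1.09, and the wt arrays between -0.13 and 0.14. 3bKI replicates 1, 3 and 5 were thus the low ones, and 1KI replicate 1 was the lowest of its group. The collection times behind these arrays are not given, and their part in the difference was not tested.

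Per3, a period gene, showed this pattern. Relative to wt its levels were -0.84, -0.22 and 0.90 in 1KI (lowest, median and highest of 10) and -3.30, -0.74, -3.27, -0.42 and -1.84 in the 5 3bKI arrays, against -0.36 to 0.41 in wt. All 3bKI arrays lay below the wt range, and 2 of them within the range of 1KI. The difference was 1.78 ± 0.33 (adjusted p = 3.3e-04), and the other 5 probe sets of Per3 all had positive differences, from 0.36 to 1.44. Per2 was higher in 1KI by 1.39 ± 0.32 (adjusted p = 0.0027), with changes from wt of -0.11 in 1KI and -1.50 in 3bKI. For Per1 the difference was 1.42 ± 0.33 (adjusted p = 0.0028), although neither change from wt passed (0.62 in 1KI and -0.80 in 3bKI). Cry2, a cryptochrome repressor, differed by 0.51 ± 0.10, having risen by 0.34 in 1KI (adjusted p = 0.0021) while standing at -0.17 in 3bKI.

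Among the outputs, Usp2, a deubiquitinase gene, was higher in 1KI by 1.81 ± 0.39 (adjusted p = 0.0017) and Tef by 1.17 ± 0.23. Tsc22d3, the gene of the glucocorticoid-induced leucine zipper protein, was higher by 1.03 ± 0.18 (adjusted p = 2.1e-04). Upp2, a uridine phosphorylase gene, was higher by 1.12 ± 0.21 and Nampt, of NAD salvage, by 1.05 ± 0.22. The genes named from here to the end of this paragraph were chosen after their values were seen. Ciart, a repressor of the loop, differed by 1.44 ± 0.39, with 1.08 as the median of 1KI and -1.14, 1.30, -1.46, 0.24 and -1.42 in 3bKI, so that the same 3bKI arrays 1, 3 and 5 were low. Nr1d2, which encodes the nuclear receptor REV-ERB beta, differed by 1.03 ± 0.24. Dbp, with 1.70 ± 0.63 and a change of -2.58 in 3bKI, did not pass between the knock-ins (adjusted p = 0.054), and its 3bKI arrays spread from -5.31 to -0.19. Lower in 1KI were Npas2 (-0.36) of the core list and Leo1 (-0.48), of the PAF1 complex, of the output list. Clock had risen in both knock-ins, by 0.32 in 1KI and 0.43 in 3bKI, and did not pass between them (-0.11, 95% interval -0.34 to 0.12).

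**Figure D3:**
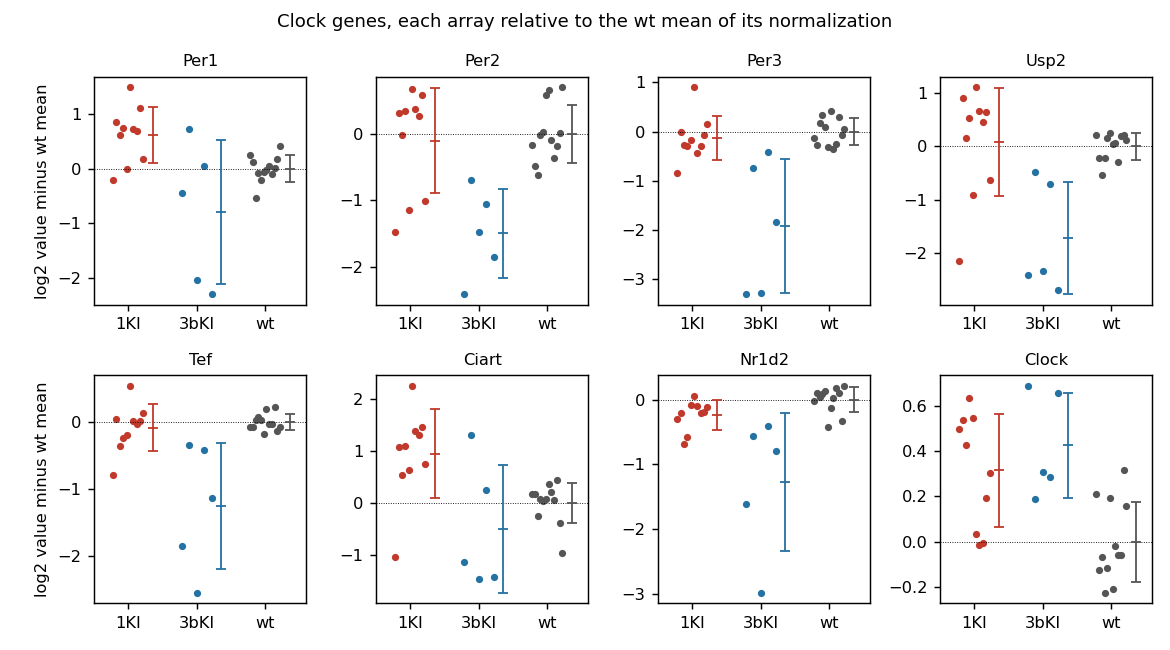
Log2 level of 8 clock genes in each array relative to the wt mean of its normalization, with 1KI (10), 3bKI (5) and wt (12) from left to right and bars for the mean and SD. In Per3, Tef and Nr1d2 the 3bKI arrays reach down to -3.30, -2.55 and -2.98 while the 1KI arrays stay near wt, and in Clock both knock-ins lie above the wt mean.

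Promoters of 3 of these genes are shown because they hold the 2 motifs named above, the E-box or the D-box. All are stretches of 150 bases from the RefSeq annotation of GRCm38.p6 on the gene's strand, with motifs in capitals: D-boxes (TTATGTAA) in Per3, at chr4:151044746-151044895 on the minus strand, and E-boxes (CACGTG) in Ciart, at chr3:95882229-95882378 on the minus strand, and in Per1, at chr11:69098749-69098898 on the plus strand.
Per3: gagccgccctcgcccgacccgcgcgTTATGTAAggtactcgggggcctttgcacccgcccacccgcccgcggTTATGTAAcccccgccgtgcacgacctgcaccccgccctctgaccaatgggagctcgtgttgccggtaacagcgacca
Ciart: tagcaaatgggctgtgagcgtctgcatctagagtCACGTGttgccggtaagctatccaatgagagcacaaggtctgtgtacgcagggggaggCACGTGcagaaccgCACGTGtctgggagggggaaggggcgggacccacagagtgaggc
Per1: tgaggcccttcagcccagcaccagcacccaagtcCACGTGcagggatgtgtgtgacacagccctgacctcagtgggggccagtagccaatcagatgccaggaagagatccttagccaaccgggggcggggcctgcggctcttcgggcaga
The D-boxes of Per3 begin 205 and 158 bases before its start, the E-boxes of Ciart 116, 58 and 44 bases before, and that of Per1 166 bases before. Searched on both strands over the 250 bases before each start, the E-box was found in 9 of 31 clock genes with a promoter in the table (29%), against 6.86% of 27025 genes, and the D-box in 2 of 31 (6.45%), against 0.977%. A match describes the letters of the window and no binding.

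Genes of fat use and fasting also lay higher in 1KI than in 3bKI. PPAR alpha is the nuclear receptor that turns on fat oxidation in the fasting liver. Of 26 inducible targets 12 were higher in 1KI and 0 lower, with a median of 0.41, and of 19 genes of fat oxidation and ketogenesis 7 were higher and 1 lower, with a median of 0.09. Against wt, 3 of the 26 targets had risen and 1 had fallen in 1KI, while 1 had risen and 11 had fallen in 3bKI. The 19 genes of fat oxidation and ketogenesis had fallen in part in both knock-ins. In 1KI 1 had risen and 8 had fallen (median change -0.14), and in 3bKI 0 had risen and 10 had fallen (median -0.23). Of 19 gluconeogenic and fasting genes 8 were higher and 0 lower (median 0.40), and of 20 fatty acid synthesis genes 6 were higher and 2 lower (median 0.28).

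Lpin1, a phosphatidate phosphatase that also acts as a PPAR alpha coactivator, led this group. Its levels relative to wt were -0.22, 1.36 and 2.02 in 1KI (lowest, median and highest) and -0.89, 0.94, -2.01, -0.93 and -1.15 in 3bKI, against -0.83 to 0.95 in wt. 3bKI replicate 2 reached the range of 1KI, and the other 4 lay below every 1KI array. The difference was 2.10 ± 0.36 (adjusted p = 1.4e-04), and its other probe set gave 2.03. Its relative Lpin2 differed by 1.06 ± 0.15, with changes from wt of 0.62 in 1KI and -0.44 in 3bKI, both called. Cyp4a14, a fatty acid hydroxylase and a classic PPAR alpha target, stood at -0.72 in 1KI and changed by -2.80 in 3bKI. That difference of 2.08 ± 0.65 (adjusted p = 0.022) was lost without 3bKI replicate 2 (1.73, adjusted p = 0.077) or 5 (1.83, adjusted p = 0.065).

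The peroxisome gene Pex11a was higher in 1KI by 0.83 ± 0.14, the lipid droplet gene Plin5 by 0.92 ± 0.19 and Angptl4, an inhibitor of lipoprotein lipase, by 1.33 ± 0.28. The thiolase gene Acaa1b (0.48 ± 0.09), Cpt1a, which admits fatty acids to mitochondria (0.50 ± 0.09), and Eci2, an enoyl-CoA isomerase (0.61 ± 0.09), were also higher, each near wt in 1KI and lowered in 3bKI. Foxo1, a transcription factor of the fasting state, had arrays from -0.19 to 0.61 in 1KI and from -1.12 to -0.25 in 3bKI, without overlap, and differed by 0.80 ± 0.13 (adjusted p = 8.4e-05). The insulin receptor gene Insr (0.54 ± 0.07) and Pck1, the gluconeogenic carboxykinase (0.58 ± 0.09), were separated in the same way. Among synthesis genes, the desaturase gene Fads2 was higher by 0.79 ± 0.13 and Acaca, the acetyl-CoA carboxylase, by 0.54 ± 0.11. The call of Acaca was lost when the probe sets of the gene were averaged (0.25).

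Metallothioneins bind zinc and copper and answer to glucocorticoids, as do Fkbp5 and Zbtb16. Of 15 such genes 8 were higher in 1KI and 0 lower, with a median of 0.39, and against wt 4 had risen and 1 had fallen in 1KI while 4 had fallen in 3bKI. The mean of the list lay between 0.01 and 0.95 in 1KI and at 0.06, 0.09, -0.57, -0.35 and -0.87 in 3bKI, against -0.24 to 0.27 in wt. 3bKI replicates 3, 4 and 5 were thus the low ones, a different set from the low clock arrays. Mt2 had levels of -1.81, 0.71 and 2.45 in 1KI and of -0.89, 0.40, -2.55, -1.40 and -3.74 in 3bKI, against -0.99 to 1.06 in wt. Its difference was 2.16 ± 0.51 (adjusted p = 0.0037) with overlapping arrays. Mt1 differed by 1.64 ± 0.45 (adjusted p = 0.011), but without 3bKI replicate 5 by 1.01 (adjusted p = 0.062). Fkbp5, a cochaperone of the glucocorticoid receptor, was higher by 1.37 ± 0.27 and Zbtb16, a zinc finger factor, by 1.60 ± 0.41.

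Of 20 heat shock chaperone genes 5 were higher in 1KI and 0 lower (median 0.24), and against wt 1 had fallen in 1KI and 8 in 3bKI. With the 3′ minus 5′ signal as a covariate 12 were higher and 1 lower, and without 1KI replicate 6 10 were higher (median 0.34). The inducible chaperone gene Hspa1b was higher by 1.66 ± 0.58 (adjusted p = 0.044), a call lost in 9 of 27 fits that left out 1 array, and Hsph1 by 0.95 ± 0.26. Hspa8, the constitutive member, was higher by 0.41 ± 0.12, a call lost without 3bKI replicate 4 (0.29, adjusted p = 0.0897). Of 28 acute phase genes 6 were higher and 0 lower (median 0.13), and against wt 8 had risen in 1KI and 3 in 3bKI. Il1r1, the interleukin-1 receptor, had risen by 1.01 in 1KI and stood at 0.08 in 3bKI, a difference of 0.93 ± 0.21 (adjusted p = 0.0021). Saa4, a serum amyloid A gene, was higher by 0.62 ± 0.13. Lcn2, a lipocalin chosen after its values were seen, had risen in 1KI by 1.66 and did not pass between the knock-ins (0.26).

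Apob, Retreg3 and Sbk1 were each parted without overlap of the knock-in arrays. Apob, whose product is the scaffold of the liver's secreted lipoproteins, had levels of -0.12, -0.01 and 0.08 in 1KI (lowest, median and highest) and of -2.20, -1.24, -2.39, -1.89 and -2.12 in 3bKI, against -0.14 to 0.14 in wt. The 1KI arrays lay within the wt range and every 3bKI array far below it. The difference was 1.96 ± 0.10 (adjusted p = 2.2e-13), the smallest p of all genes, but it rests on the brighter probe set, since the other gave -0.09. The error and p pool the spread of all groups, while the 3bKI arrays, from -2.39 to -1.24, spread more widely than 1KI or wt. Both therefore understate the spread within 3bKI. Retreg3, an endoplasmic reticulum receptor of selective autophagy, lay between -0.75 and 0.04 in 1KI and between -1.95 and -1.45 in 3bKI. It differed by 1.51 ± 0.09 (adjusted p = 7.5e-12), with 0.40 and 0.03 at its dimmer probe sets. The kinase gene Sbk1 differed by 1.66 ± 0.15 (adjusted p = 4.8e-08), with a change from wt of -0.19 in 1KI, which was not called, and of -1.84 in 3bKI, which was.

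Tmem267, a transmembrane protein gene, was higher by 1.93 ± 0.36 with no overlap. Its 3bKI arrays ranged widely, from -4.51 to -0.60, and without replicate 2, the lowest, the difference was 1.25. Pcp4l1, a Purkinje cell protein 4 relative, had risen by 1.11 in 1KI, stood at -0.50 in 3bKI and differed by 1.61 ± 0.20 without overlap. Pctp, the phosphatidylcholine transfer protein gene, had the largest difference among called genes above the median level, 2.94 ± 0.45 (adjusted p = 5.0e-05). Its levels were 1.5, 2.71 and 3.73 in 1KI and -0.77, -0.96, -1.41, 2.28 and -0.50 in 3bKI, against -1.37 to 1.41 in wt. 3bKI replicate 4 alone had the level of 1KI, and without it the difference was 3.58. The other probe set of Pctp gave 1.37.

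On the other side, Adat2, a subunit of the tRNA adenosine deaminase, had levels of -1.93, -1.52 and -0.48 in 1KI and of 0.12, -0.30, 0.40, 0.16 and 0.22 in 3bKI, against -0.17 to 0.18 in wt. The knock-ins did not overlap, and the difference was -1.54 ± 0.15 (adjusted p = 7.5e-08). Psmc3ip, a meiotic recombination factor gene, differed by -1.24 ± 0.32 (adjusted p = 0.0076), with arrays that overlap. With the 3′ minus 5′ signal as a covariate that call was lost (-0.85, adjusted p = 0.077).

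MHC class II genes, whose products present peptides to CD4+ T cells, led the lists in the other direction. Of 9 tested, 6 were lower in 1KI and 0 higher, with a median of -0.97. Against wt, 0 had risen and 2 fallen in 1KI, while 4 had risen and 0 fallen in 3bKI. Averaged over the 9 genes, the 1KI arrays stood between -0.67 and 0.78, the 3bKI arrays at 0.93, 0.45, 0.83, 0.62 and 0.55, and the wt arrays between -0.17 and 0.14. All 3bKI arrays were above wt, and 1KI replicate 3 was the only 1KI array at their level.

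H2-Ab1, the beta chain of I-A, had levels of -1.73, -0.66 and 1.12 in 1KI and of 1.42, 0.69, 1.54, 0.77 and 0.88 in 3bKI, against -0.37 to 0.37 in wt. Its changes from wt were -0.68 in 1KI and 1.06 in 3bKI, both called, and it differed by -1.74 ± 0.29 (adjusted p = 1.3e-04), with all 3 probe sets between -1.84 and -1.39. Cd74, the invariant chain, differed by -1.57 ± 0.28 (adjusted p = 3.0e-04), with changes from wt of -0.09 in 1KI and 1.47 in 3bKI. The alpha chain gene H2-Aa differed by -1.44 ± 0.31 (adjusted p = 0.0015), with changes of -0.80 in 1KI, which was called, and 0.65 in 3bKI, which was not. H2-Eb1, the beta chain of I-E, differed by -1.43 ± 0.27 (adjusted p = 3.7e-04) and had risen by 1.85 in 3bKI. H2-DMa, of the peptide loading complex, differed by -0.97 ± 0.20. H2-Oa (-0.30) was lower as well. Ciita, the master coactivator of these genes, did not pass (-0.12, 95% interval -0.33 to 0.08). H2-Oa and Ciita were chosen after their values were seen.

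**Figure D4:**
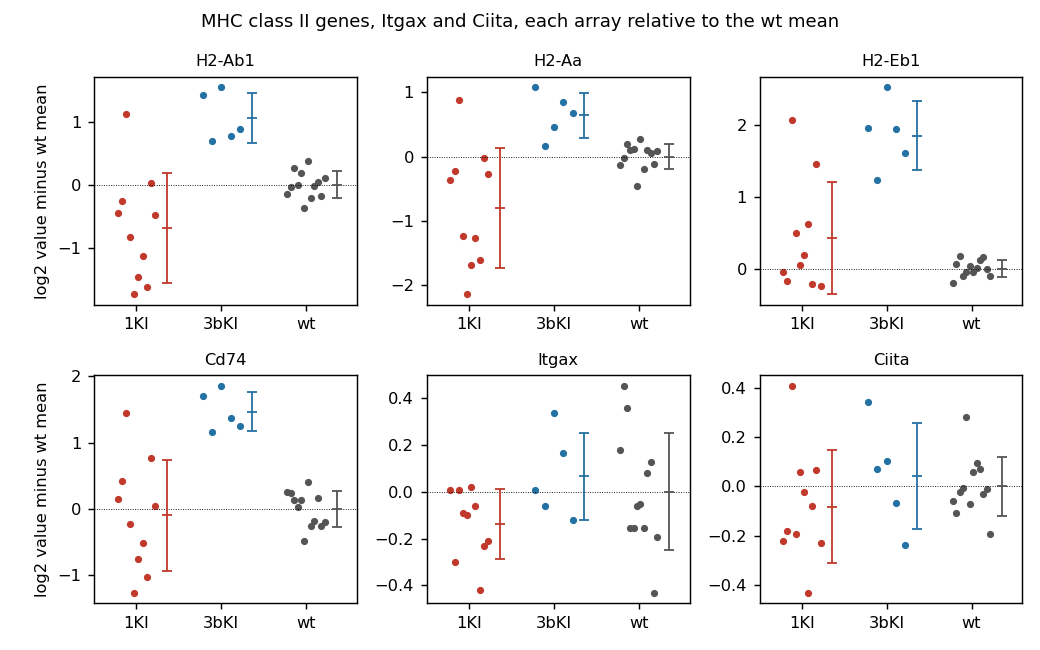
Log2 level of 4 MHC class II genes, the dendritic cell marker Itgax and the coactivator Ciita in each array relative to the wt mean, with 1KI (10), 3bKI (5) and wt (12) from left to right and bars for the mean and SD. The 3bKI arrays of H2-Ab1, Cd74 and H2-Eb1 all lie above the wt arrays, and Itgax and Ciita do not pass between the knock-ins.

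The promoters of the chain genes H2-Aa and H2-Eb1 are shown because the Y box (CTGATTGG, in capitals) is the element of MHC class II promoters bound by NF-Y. Both stretches end at the base before the start, at chr17:34287824-34287973 on the minus strand and chr17:34305717-34305866 on the plus strand of GRCm38.p6 (RefSeq).
H2-Aa: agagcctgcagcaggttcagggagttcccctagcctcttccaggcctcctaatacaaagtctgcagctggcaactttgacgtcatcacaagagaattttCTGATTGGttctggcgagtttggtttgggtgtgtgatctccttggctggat
H2-Eb1: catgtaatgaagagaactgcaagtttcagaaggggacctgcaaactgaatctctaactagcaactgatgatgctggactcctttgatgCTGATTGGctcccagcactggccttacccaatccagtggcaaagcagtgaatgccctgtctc
The box begins 51 and 62 bases before these starts. It was found on either strand in 3 of 6 MHC class II genes with a promoter in the table (50%), the 2 above and H2-Oa, against 4.43% of all 27025 genes.

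Markers of cells that carry MHC class II were measured at low levels in part: 1 of 9 dendritic cell, 3 of 16 lymphocyte and 17 of 19 macrophage markers lay above the median level of genes, against 5 of 9 MHC class II genes. Of 9 dendritic cell markers 1 was lower in 1KI, Batf3 (-0.31 ± 0.09, and not called at -0.23 without 3bKI replicate 1), with a list median of -0.08, and the list mean ran from -0.18 to 0.11 in 1KI and from -0.13 to 0.14 in 3bKI, against -0.11 to 0.12 in wt. Itgax, chosen after its values were seen, differed by -0.20 ± 0.11 (adjusted p = 0.20). Of 19 macrophage markers 1 was higher and 2 lower (median -0.24): Cd163, a scavenger receptor gene, was higher by 1.37 ± 0.21 with a change of -1.06 in 3bKI, and Cx3cr1 (-0.52 ± 0.15) and C1qc (-0.62 ± 0.21) were lower. Cx3cr1 lost its call without 3bKI replicate 1 (-0.35) or 3 (-0.45), and C1qc in 6 of 27 fits that left out 1 array. The mean of that list lay between -0.53 and 0.78 in 1KI, with replicate 3 the highest, and between -0.34 and 0.35 in 3bKI, against -0.13 to 0.16 in wt. Of 16 lymphocyte markers the T cell gene Cd3d (-0.29) and the B cell gene Cd79b (-0.37) were lower. Cd3d lost its call without 3bKI replicate 3 (-0.23), and Cd79b without 3 (-0.34) or 4 (-0.32). Among all genes 8.79% were higher and 11.6% lower, and the counts of lower genes in these marker lists stand near that share. The part of these cells in the MHC class II difference was not tested.

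Of 26 interferon-stimulated genes 11 were lower in 1KI and 0 higher, with a median of -0.32. Against wt, 5 had fallen and 1 had risen in 1KI, and 5 had risen and 0 fallen in 3bKI. The list mean lay between -0.35 and 0.29 in 1KI and at 0.86, -0.15, 0.24, 0.03 and 0.06 in the 3bKI arrays, against -0.26 to 0.17 in wt, so 3bKI replicate 1 stood apart. Xaf1, an apoptosis regulator, differed by -0.59 ± 0.13, and Mx2, an antiviral GTPase gene, by -0.35 ± 0.08. Oasl1, of the oligoadenylate synthetase family, differed by -0.64 ± 0.18, a call lost without 3bKI replicate 5 (-0.50, adjusted p = 0.0502). Ifit3, an antiviral protein gene, differed by -0.51 ± 0.14, a call lost without 3bKI replicate 1 (-0.32, adjusted p = 0.065). With the 3′ minus 5′ signal as a covariate 6 of the 26 were lower.

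Of 18 sinusoidal endothelial markers 6 were lower in 1KI and 0 higher (median -0.14). Both knock-ins had 5 raised members against wt, with 2 lowered in 1KI and 1 in 3bKI. Dnase1l3, a nuclease gene, differed by -0.65 ± 0.13 (adjusted p = 9.4e-04) after a rise of 0.82 in 3bKI, and the Fc receptor gene Fcgr2b by -0.53 ± 0.13. Pecam1 (-0.59 ± 0.18), an adhesion molecule, and Cdh5 (-0.34 ± 0.10), VE-cadherin, lost their calls without 3bKI replicate 3 (-0.55 and -0.32), and Cdh5 also without 1 (-0.32) or 5 (-0.30). Counts in other marker lists stand beside 8.79% higher and 11.6% lower among all genes. They were 2 of 15 hepatocyte markers higher and 0 lower, and 3 of 16 stellate cell markers higher and 1 lower. Of the cholangiocyte markers 1 of 9 was lower, and of the erythroid markers 1 of 7.

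Other genes far lower in 1KI than in 3bKI had varied roles. Gdpd3, a lysophospholipase D gene, had levels of -5.97, -5.39 and -2.44 in 1KI and of 0.11, -2.51, -0.90, -2.29 and -5.45 in 3bKI, against -5.07 to 0.69 in wt. At least 1 array of 3bKI and of wt therefore had the low level that most 1KI arrays showed. The difference was -2.71 ± 0.78 (adjusted p = 0.014), and it was lost without 3bKI replicate 1 (-2.13, adjusted p = 0.069) or 3 (-2.39, adjusted p = 0.054). The serpin gene Serpina12 differed by -1.68 ± 0.46, and Hamp2, a hepcidin, by -1.57 ± 0.41 at an _x_at probe set, with -0.25 at its other one. Ntrk2, the receptor of brain-derived neurotrophic factor, differed by -1.36 ± 0.33, with -1.33 at 1 and between -0.26 and 0.15 at the other 6 of its further probe sets.

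In a further set the difference came with a rise in 3bKI. The tubulin gene Tubb2a stood at 0.39 in 1KI, had risen by 1.85 in 3bKI and differed by -1.46 ± 0.37. The manganese exporter gene Slc30a10 had risen by 1.43 and differed by -1.38 ± 0.28. Tjp3, of tight junctions, had risen by 1.66 and differed by -1.38 ± 0.27. Cldn1, also of tight junctions, had a called change of -0.69 in 1KI, with 0.55 in 3bKI, and differed by -1.23 ± 0.28. At its next brightest probe set the changes were -0.48 in 1KI and 1.39 in 3bKI, a difference of -1.87. Its dim probe sets differed by -0.07 and -0.20. Alas2, the erythroid haem synthesis gene, differed by -1.23 ± 0.36, with 2.37 and 2.6 in 3bKI replicates 2 and 5 alone, and lost its call without replicate 2 (-0.91, adjusted p = 0.073) or 5 (-0.85, adjusted p = 0.078). Srxn1, a sulfiredoxin gene of the oxidative stress response, differed by -0.90 ± 0.17 without overlap. The phase II list held 6 lower and 2 higher genes of 32, among them the glutathione transferase gene Gstm6 (-1.06 ± 0.21) and the quinone reductase gene Nqo1 (-0.71 ± 0.18). Of 22 genes of the unfolded protein and amino acid stress responses 5 were lower and 1 higher, including the chaperone genes Hyou1 (-0.56) and Pdia4 (-0.63) and, higher, Herpud1 (0.68), a degradation factor. Pdia4 lost its call without 3bKI replicate 4 (-0.48). With equal array medians 2 of these 22 were lower.

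In 81 genes, 0.445% of those tested, the knock-ins had changed in opposite directions from wt. Of these 36 were raised in 1KI and lowered in 3bKI. Il6ra, the interleukin-6 receptor, had levels of -0.58, 0.65 and 1.33 in 1KI and of -0.70, -0.89, -2.22, -1.21 and -2.61 in 3bKI, against -0.34 to 0.58 in wt. The knock-ins did not overlap, and the difference was 2.17 ± 0.25 (adjusted p = 1.8e-06), with 0.95 at the other probe set. Map3k5, the stress kinase ASK1, had changes of 0.56 in 1KI and -0.75 in 3bKI. Zbtb20, a repressor of alpha-fetoprotein, had changes of 0.47 and -0.46 without overlap, and all 9 of its probe sets had positive differences, from 0.59 to 1.27. Snhg12, a noncoding RNA, had changes of 0.42 and -0.46.

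The other 45 were lowered in 1KI and raised in 3bKI, H2-Ab1 among them. Slc25a48, a mitochondrial carrier gene, lay between -1.11 and -0.28 in 1KI and at 0.59, 0.02, 0.54, 0.49 and 0.39 in 3bKI, against -0.24 to 0.12 in wt, and differed by -0.99 ± 0.11 (adjusted p = 9.9e-07). That pattern rests on its brightest probe set, since the dimmer ones differed by 0.19 and -0.06. Tceal8, of the elongation factor A-like family, had changes of -0.37 and 0.36 without overlap. The linker histone gene H1f2 had changes of -0.53 and 0.41, and Fkbp11, of the endoplasmic reticulum, of -0.38 and 0.46. At its dimmer probe sets H1f2 differed by -0.57 and -0.29, with changes of -0.04 and 0.11 in 3bKI. Fkbp11 differed by -0.14 and 0.03 at its dimmer ones. Once the level of the hybridization controls was a block, 0 of all genes were called in opposite directions by limma at the adjusted threshold, and 20 had an unadjusted p under 0.05 in both.

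Both knock-ins had changed in the same direction from wt in 1755 genes, 9.65% of those tested: 781 rose (4.29%) and 974 fell (5.35%). They are 39.4% of the genes called in 1KI and 39.1% of those called in 3bKI. Since both comparisons share the wt arrays, this count is no evidence of a common response. It also changed with the wt arrays that carry the contrast: when the level of the hybridization controls was a block, 98 genes were called in both, of which 75 were among the 1755, and with the 2 wt arrays of the knock-in level alone 50. When 3bKI was set against E2f3a knock-out livers (3aKO, 10 arrays) instead, so that no array was shared, 1986 genes had the same direction and 152 opposite ones. None of the 3aKO arrays had the higher control level.

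Of 16 genes named for large shared changes, 8 kept both calls with the block. The largest was Erdr1, an erythroid differentiation regulator gene, with levels of 2.48, 2.77 and 3.22 in 1KI and of 2.39, 2.92, 2.02, 3.10 and 2.28 in 3bKI, against -0.72 to 0.72 in wt. Every knock-in array lay above every wt array, the changes were 2.80 and 2.55, and the difference between them was 0.25 (95% interval -0.16 to 0.67). That signal is from an _x_at probe set, which can bind related transcripts, and at the other probe set, which is dim, the changes were 0.17 and 0.08 and neither was called. The nuclear RNA Neat1, the scaffold of paraspeckles, had changes of 1.51 in 1KI and 1.56 in 3bKI with overlap into wt, but of 0.04 and 0.13 at its other probe set. Firre, another nuclear RNA, had changes of 1.26 and 1.18, with the same sign at its 3 dimmer probe sets. Yae1d1, which encodes an assembly factor of an iron-sulfur protein, had changes of 1.20 and 1.42, but its other probe sets gave -0.66 and -0.84, and 0.38 and 0.32. Zfp950, a zinc finger gene, had changes of 1.06 and 1.15, against 0.10 and 0.07, and -0.08 and -0.11, at its other probe sets. Ass1, which encodes a urea cycle enzyme, had changes of 1.25 and 1.07 at its only probe set with 1 symbol, at a mean level of 8.22. Probe sets with several symbols were not used, and whether this one follows the main transcript of Ass1 is not known here. These genes also overlapped wt in part. Replicate 7 of wt reached 1.21 in Ass1 and 1.33 in Zfp950, within the range of both knock-ins. In Yae1d1 wt replicate 11 reached 1.095, within the range of 1KI.

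Tppp, which promotes tubulin polymerization, had changes of -1.07 in 1KI and -1.09 in 3bKI. The differences of the 8 between the knock-ins ran from -0.21 to 0.25, none of them called. The other 8 lost at least 1 call with the block, where errors are larger. Their values there were close to or beyond those without it in Akr1e1 (-1.60 and -2.07), Cyp2g1 (-1.31 and -1.09) and S1pr5 (-1.30 and -1.25). They were nearer to 0 in Ctse (0.843 and 1.12), 1810019D21Rik (0.716 and 0.858) and Acot3 (-0.904 and -2.15). The same held for Abcd2 (-0.455 and -0.849) and Bhlhb9 (-0.54 and -0.61). Without the block the 8 were Ctse, a cathepsin (1.44 and 1.71, but -0.35 and -0.16 at its other probe set), 1810019D21Rik (1.04 and 1.18), Akr1e1, an aldo-keto reductase (-1.61 and -2.08), the acyl-CoA thioesterase Acot3 (-1.33 and -2.58), Cyp2g1 (-1.38 and -1.17), the peroxisomal transporter Abcd2 (-1.06 and -1.46), S1pr5 (-0.96 and -0.91) and Bhlhb9 (-0.87 and -0.95). The call of Acot3 in 1KI was also lost without its replicate 1, 6, 7 or 10 (between -1.20 and -1.05). That of Cyp2g1 in 3bKI was lost without its replicate 4 (-0.99) or 5 (-0.81). Abcd2 stood at -0.15 and -0.35 in 3bKI replicates 1 and 3, on the Xist side of the sex index. In 3bKI replicates 2, 4 and 5, on the Y side, it stood at -2.00, -2.08 and -2.70, while in 1KI both sides overlapped. Of 10 nuclear noncoding RNAs and RNA processing genes 6 had risen in 1KI and 3 in 3bKI, and 1 was higher in 1KI than in 3bKI. Malat1 (0.84 and 1.35) and the splicing factor gene Srsf5 (0.64 and 0.61), chosen after their values were seen, rose in both.

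**Figure D5:**
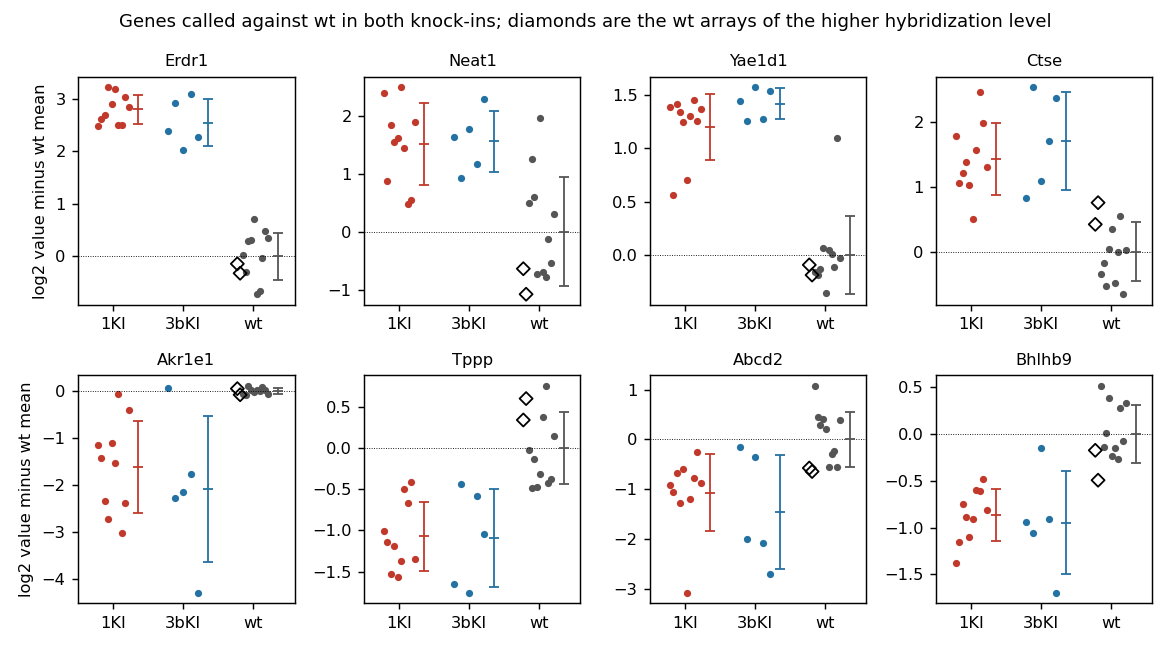
Log2 level of 8 genes called against wt in both knock-ins, in each array relative to the wt mean, with 1KI (10), 3bKI (5) and wt (12) from left to right and bars for the mean and SD. Open diamonds are the 2 wt arrays with the hybridization control level of the knock-ins. In Ctse (0.42 and 0.76) and Abcd2 (-0.57 and -0.64) they lie on the knock-ins' side of the wt mean. In Tppp (0.34 and 0.60) they lie on the other side. Both are on the Y side of the sex index, as are wt replicates 8 to 12. Abcd2 was also low in wt replicates 8 to 11 (-0.54, -0.30, -0.23 and -0.55), but not in 12 (0.40). On the Xist side, in wt replicates 3 to 7, Abcd2 ran from 0.20 to 1.07.

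Few of the classic E2F targets were called between the knock-ins. Of 37 tested G1/S and DNA replication genes 3 were lower in 1KI and 0 higher, beside 11.6% and 8.79% of all genes, with a median of -0.04. Against wt, 9 had fallen in 1KI and 2 in 3bKI, with median changes of -0.33 and -0.21, and 0 had risen in either. The count of 9 was 3 without 1KI replicate 6 and 4 without replicate 1, with median changes of -0.30 and -0.27, and without replicate 6 only 1 gene was lower in 1KI than in 3bKI. The 3 were Rfc3, a clamp loader subunit (-0.53 ± 0.18, adjusted p = 0.038), Pola2, of DNA polymerase alpha (-0.32 ± 0.11, adjusted p = 0.038), and Dut, the dUTPase (-0.41 ± 0.15, adjusted p = 0.043). All 3 lost their calls with equal array medians, and Rfc3, Pola2 and Dut lost them in 9, 9 and 11 of 27 fits that left out 1 array, with values from -0.63 to -0.46, -0.40 to -0.27 and -0.55 to -0.33. The following genes were chosen after their values were seen. Pola1, the catalytic subunit, had changes of -0.93 in 1KI and -0.76 in 3bKI, and Tk1, thymidine kinase, of -0.33 and -0.45, all called against wt, without a called difference. Mcm5, of the replicative helicase, had levels of -2.38, -0.89 and 0.90 in 1KI and of 0.02, -1.75, 0.05, 0.59 and -1.95 in 3bKI, against -0.76 to 1.60 in wt. The knock-ins overlap each other, with some arrays of each below every wt array, and the difference of -0.14 has a 95% interval of -1.14 to 0.87. Of 29 G2/M and mitosis genes 1 was lower (median -0.29).

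The promoters of Mcm5 and Rfc3 are shown because they hold E2F sites, here in capitals. They lie at chr8:75109309-75109458 on the plus strand and chr5:151651209-151651358 on the minus strand of GRCm38.p6 (RefSeq).
Mcm5: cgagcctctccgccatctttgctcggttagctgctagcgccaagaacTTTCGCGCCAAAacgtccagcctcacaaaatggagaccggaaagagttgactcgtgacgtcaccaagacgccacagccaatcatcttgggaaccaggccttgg
Rfc3: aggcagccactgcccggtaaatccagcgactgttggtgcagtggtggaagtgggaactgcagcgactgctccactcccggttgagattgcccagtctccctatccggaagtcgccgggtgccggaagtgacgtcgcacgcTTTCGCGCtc
In Mcm5 a TTTCGCGC that begins 153 bases before the start overlaps a TTTGGCGC on the other strand, and in Rfc3 the site begins 10 bases before the start. At least 1 of the forms TTTCCCGC, TTTGGCGC and TTTCGCGC was found on either strand in 9 of 31 G1/S genes with a promoter in the table (29%), against 1.78% of 27025 genes. Of the 3 genes called between the knock-ins 1, Rfc3, was among the 9.

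Counts in further lists were as follows, beside 8.79% higher and 11.6% lower among all genes. Of 18 p53 target genes 5 were higher and 2 lower, of 16 hepcidin and iron genes 1 higher and 5 lower, of 24 cholesterol genes 4 higher and 1 lower, of 16 ChREBP and sugar handling genes 2 higher and 2 lower, of 19 fetal liver and IGF genes 3 higher and 3 lower, and of 23 phosphatidylcholine genes 3 higher and 4 lower. Of 32 oxidative phosphorylation genes 1 was higher and 1 lower, of 31 cytochrome P450 genes of families 1 to 3 0 higher and 1 lower, of 21 ribosomal protein genes 2 higher and 1 lower, and of 22 bile acid genes 2 higher and 1 lower. Of 20 lipoprotein assembly genes 2 were higher, Apob among them, 1 was lower and 17 were not called.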

How the data were processed

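Liver RNA was measured on Affymetrix arrays. The deposited values are log2 levels that the authors had normalized; the sources used here do not name the method. Their range, 2.13 to 15.06, gave the log base. Columns of the authors' normalizations 1 and 2 were each centred on the wt mean of that normalization, and each wt array entered once as the mean of its centred columns. Of 45101 probe sets 34945 had 1 symbol in the platform annotation, 932 several, 9160 none, and 64 were controls. The probe set with the highest mean represented each of 18193 genes, a choice among several for 9010. No filter on low signal was used.

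The 27 arrays entered 1 linear model of limma 3.58.1 (R 4.3.3; lmFit, then eBayes with no trend), with Benjamini-Hochberg adjustment over all genes in each comparison at 0.05. Errors of log2 values are moderated standard errors. The wt mean sets the zero of each normalization; as the wt arrays are shared, their spread enters the error of the difference of differences only through the pooled variance. The number of arrays limits the precision, with a median standard error of 0.0869. The fit was also run on simulated data, drawn for each gene with the same residual SD in all groups. Unequal spread among the groups was therefore not covered.

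The comparison, its members and the gene lists were chosen with earlier results of these data known. Named were E2f1, E2f2 and E2f3; of called genes above the median level of 6.89 the 15 highest and 15 lowest differences; 16 shared and 10 opposite genes by the size of the smaller change; and up to 4 called members of each list by p. Others are said to be chosen after their values were seen. 1 gene that the rule names is not reported here. Alternatives changed 1 choice at a time: probe sets, scaling, weights, covariates, blocks, the bridge through 3aKO, and each array left out. Those on wt arrays of 1 hybridization control level were added after seeing the data. The replicate numbers did not pair arrays: over 20 pairs, correlations of deviations ran from -0.345 to 0.327, and 8 were over 0.1. Promoters (250 bases before each start) came from RefSeq, GRCm38.p6. Figures were drawn with matplotlib.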

Additional observations from a re-analysis of the deposited data

Results flagged for a closer look

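Of 340 values tested for a single array far from the rest of its knock-in group, 39 stood apart (11.5%), where chance flags about 1 in 20. They fall on 33 values of 1KI and 6 of 3bKI, and 16 are 1KI replicate 6. All are log2 levels relative to wt unless stated otherwise. Arntl and Pcna were chosen after their values were seen. No cause was tested.

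1KI replicate 6, with the highest 3′ minus 5′ signal (1.75) and the highest poly-A control level of its group (10.86), was the highest in Firre (2.75), Malat1 (2.07), Zfp950 (2.02), Zbtb20 (1.35) and the mean of the nuclear noncoding RNAs (0.91). It was the lowest in Abcd2 (-3.06), Pcna (-1.50), Srxn1 (-1.42), Dut (-1.02), Retreg3 (-0.75) and Tmem267 (-0.53). It was also the lowest in the means of the fat oxidation (-0.49), oxidative phosphorylation (-0.33) and p53 target lists (-0.30).

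1KI replicate 1 was the lowest in Upp2 (-1.07), Ciart (-1.04), Angptl4 (-0.65), Il6ra (-0.58), Eci2 (-0.43), Lpin1 (-0.22), Pex11a (-0.21), Lpin2 (-0.20) and the mean of the core clock genes (-0.27), and the highest in Oasl1 (0.67), H1f2 (0.45) and Hamp2 (0.27). 1KI replicate 3 was the highest in H2-DMa (0.93) and in the means of the acute phase (1.49), macrophage (0.78) and interferon-stimulated lists (0.29), and 1KI replicate 4 in Arntl (0.59).

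In 3bKI, replicate 4 was the highest in Pctp (2.28). Replicate 2 was the highest in H2-Oa (0.41) and the lowest in S1pr5 (-3.09) and H1f2 (-0.26). Replicate 3 was the lowest in the mean of the bile acid genes (-0.44) and replicate 5 the highest in that of the ChREBP genes (0.02).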

How the results depend on the processing

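The count between the knock-ins was 3707 and ran from 2741 (without 3bKI replicate 3) to 3866 (without 1KI replicate 1) over fits that left out 1 array. Fitted on the arrays of the groups compared alone, without the spread of wt, it was 2524, and 33 results of single genes lost their call. The matching ranges were 3822 to 4606 for 1KI against wt, 3870 to 5108 for 3bKI against wt, 1485 to 1934 for the same direction and 54 (without wt replicate 9) to 115 (without 1KI replicate 1) for opposite directions. Counted over all probe sets, with more features tested, the numbers were 6520, 9037, 8635, 3673 and 143. With the replicate number as a block 2457 genes differed between the knock-ins and 47 had opposite directions; the numbers do not pair the arrays, and the cause was not tested. With the 3′ minus 5′ signal as a covariate 2899 genes differed, and with the sex index as a covariate 3914. Equal array medians gave 53.3% of differences higher in 1KI, against 43.2% in the values as deposited.

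Counts against wt fell when the hybridization controls entered the fit. With their level as a block 390 genes were called in 1KI and 780 in 3bKI, with 98 in the same direction and 0 in opposite ones. That fit rests on 2 wt arrays, both on the Y side of the sex index, and has larger errors. In 3bKI the median of the clock outputs was -0.94 with it, against -1.10, and that of the PPAR alpha targets -0.32, against -0.33. With their signal as a covariate the counts were 970, 1197, 224 and 0, and with the 2 wt arrays of the higher level alone, which also leaves fewer arrays, 172, 311, 50 and 0. The counts of opposite calls at an unadjusted p under 0.05 in limma were 20, 39 and 8. With the wt arrays of the lower level alone 51 genes had opposite directions, and with 3aKO as the base of 3bKI 152. In single genes, averaging probe sets turned the differences of Creb1 (-0.0145, against 0.45), Ghr (-0.0828, against 0.26) and Cux2 (0.35, against -0.28), and leaving out _x_at probe sets that of Plagl1 (0.21, against -0.47); other probe sets enter there. Small differences of dim genes are limited by the number of arrays.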
